A study of Mus musculus with 235 samples.

Results

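Gene expression after dexamethasone was compared with vehicle in vCA1, the region label of 29 of the 235 libraries in the count table. The members are all libraries with that label: 14 vehicle libraries and 15 dexamethasone libraries, 1 per animal. The whole series covers 8 brain regions of 30 animals. All animals were C57Bl/6 males of 3 months, given either 10 mg/kg dexamethasone, a synthetic glucocorticoid, or saline into the peritoneum 4 h before tissue was taken. Brains were perfused, frozen and sectioned, and each region was punched from coronal sections, so that a library holds the RNA of all cells in a punch and of any neighbouring tissue that it caught. Libraries were made from the 3' ends of messenger RNA with unique molecular identifiers. Values per library are in CPM, counts per 1000000 of the library's total after its correction by the trimmed mean of M values (TMM). Changes are log2 fold changes of dexamethasone against vehicle, each with its standard error (SE).

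Dexamethasone binds the glucocorticoid receptor, encoded by Nr3c1, a nuclear receptor that moves to the nucleus, raises transcription at glucocorticoid response elements and lowers transcription of many genes driven by inflammatory factors. The receptor is present in neurons, astrocytes, oligodendrocytes, microglia and blood vessel cells, and in the hippocampus it takes part in the feedback that limits the stress response. CA1 is a field of pyramidal neurons that lies beside the dentate gyrus, whose granule cells carry other marker genes. A punch of ventral CA1 can therefore hold varying amounts of dentate tissue.

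The covariate used here, the dentate level, is the mean of log2(CPM + 1) over Dsp, Stxbp6, Lct, Tdo2, Plk5 and Npnt, of which Lct, Tdo2 and Plk5 did not pass the filter on low counts in vCA1. Each gene was fitted once without and once with the dentate level as a covariate. A gene called in both fits in the same direction, at an adjusted p of 0.05, is referred to as kept. A gene called only without the covariate is lost, and a gene called only with it is gained.

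A search of the promoters (250 bases before to 50 after the start) found a full glucocorticoid response element near the start of 5 kept genes that rose. The element searched is GNACA followed by any 3 bases and TGTNC, which reads the same on both strands. It was present in 156 of 32851 promoters of the RefSeq table (0.475%), in 28 of 9510 promoters of the genes tested (0.294%) and in 6 of 207 promoters of kept genes that rose (2.90%). None of the 77 promoters of kept genes that fell, 149 of lost genes that rose or 113 of lost genes that fell held it. The shorter motif AGAACA, on either strand, was in 19.0% of all promoters, 11.5% of those of genes tested, 14.0% of those of kept genes that rose, 5.20% of kept genes that fell, 9.40% of lost genes that rose and 14.2% of lost genes that fell. Of the genes tested, 7234 matched a promoter, among them 151 kept genes that rose. The 250 bases before the start of the 5 genes are printed because they show the element in the genes that moved, with the element in capitals, from RefSeq on GRCm38.p6, 5' to 3' on the strand of the gene. The first base of the element lies 188 bases before the start of Sgk1, 94 before that of Mt1, 172 before that of Txnip, 147 before that of Tinagl1 and 120 before that of Fam107a, whose 2 promoters in the table overlap and share 1 element.
Sgk1, chr10:21993640-21993889, plus strand: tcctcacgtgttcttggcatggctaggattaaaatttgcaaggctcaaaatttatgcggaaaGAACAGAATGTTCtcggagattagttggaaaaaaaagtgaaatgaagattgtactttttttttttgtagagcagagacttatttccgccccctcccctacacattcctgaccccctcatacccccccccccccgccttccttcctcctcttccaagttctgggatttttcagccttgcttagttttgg
Mt1, chr8:94178839-94179088, plus strand: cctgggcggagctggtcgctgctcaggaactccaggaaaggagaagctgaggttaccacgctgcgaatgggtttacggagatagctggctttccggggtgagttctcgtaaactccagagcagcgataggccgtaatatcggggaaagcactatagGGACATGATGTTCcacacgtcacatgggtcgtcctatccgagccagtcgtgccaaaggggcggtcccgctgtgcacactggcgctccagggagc
Txnip, chr3:96557707-96557956, plus strand: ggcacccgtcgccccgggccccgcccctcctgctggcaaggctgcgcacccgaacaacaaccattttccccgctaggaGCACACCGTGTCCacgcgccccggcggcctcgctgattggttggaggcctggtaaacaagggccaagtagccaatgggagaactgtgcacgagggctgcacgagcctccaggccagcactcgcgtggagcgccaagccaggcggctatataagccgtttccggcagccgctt
Tinagl1, chr4:130174803-130175052, minus strand: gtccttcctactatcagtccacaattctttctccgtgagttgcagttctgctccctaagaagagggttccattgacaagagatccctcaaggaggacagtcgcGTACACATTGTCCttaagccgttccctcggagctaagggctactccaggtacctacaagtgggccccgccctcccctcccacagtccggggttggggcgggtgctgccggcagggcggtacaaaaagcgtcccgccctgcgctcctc
Fam107a, chr14:8309778-8310027, minus strand: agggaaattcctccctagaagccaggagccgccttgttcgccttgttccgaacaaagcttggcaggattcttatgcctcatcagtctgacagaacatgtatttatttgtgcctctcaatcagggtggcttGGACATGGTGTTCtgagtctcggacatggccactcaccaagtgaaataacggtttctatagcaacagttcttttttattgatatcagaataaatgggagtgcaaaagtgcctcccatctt

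Of these 5 genes, Sgk1 encodes a kinase that acts on ion transport and FoxO factors. It ranged from 38.8 to 92.2 CPM (median 69.5) in the vehicle libraries and from 77.5 to 189 CPM (median 116) in the dexamethasone libraries. The arms overlapped, although 12 of 15 dexamethasone libraries lay above every vehicle library, and the log2 fold change was 0.84 ± 0.128 (SE). Txnip, an inhibitor of thioredoxin that also limits glucose uptake, rose by 1.10 ± 0.140 on the log2 scale, from a median of 22.3 to 52.0 CPM. The metallothionein gene Mt1 had higher levels and a smaller change, from a median of 1251 to 1721 CPM (log2 fold change 0.48 ± 0.107). Tinagl1 and Fam107a were named because of their promoters and after their values were seen. Tinagl1 rose by 1.37 ± 0.211 and Fam107a by 0.40 ± 0.107 on the log2 scale, and without vehicle replicate 11 the adjusted p of Fam107a with the dentate level was 0.0563. A match to the element is a description of these letters, and binding was not measured. Of the exon bases that the count table gives for Txnip, 19.4% are shared with a gene on the other strand, and whether counting used strand is not given in the sources used here.

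The libraries held 423576 to 1103090 counts, with medians of 747539 in the vehicle arm and 824140 in the dexamethasone arm (two-sided permutation test, p = 0.858). RNA integrity (RIN) ranged from 3.3 to 7.8 and from 2.6 to 7.6, with a median of 6.9 in both arms (permutation p = 0.660). A count of 3, the limit that a count of 0 allows, corresponds to between 2.69 and 7.78 CPM depending on the library, and covers counting error only. Dexamethasone replicates 11 and 15, the libraries with the smallest totals, and dexamethasone replicate 4 are not listed in the authors' variance-stabilised table, which lists 26 vCA1 libraries. Without those 3 libraries, 522 genes were called and 281 were kept. Vehicle replicate 15 stood apart in a few genes, with 289 CPM of Neurod1, 281 CPM of Grm4 and 278 CPM of Pvalb against at most 50.7, 38.8 and 81.9 CPM in the other vehicle libraries, and without it 518 genes were called and 261 were kept. Dexamethasone replicate 4 also stood apart, with 478 CPM of Atf4 against at most 237 CPM in any other library. Its sum over heat shock and DnaJ genes was 9003 CPM, where the dexamethasone median was 5634 CPM and the vehicle maximum 6414 CPM. That library was left out only together with dexamethasone replicates 11 and 15.

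The label was checked in vehicle libraries of the 14 animals with both a vCA1 and a vDG punch. Spink8, a marker of CA1 pyramidal neurons, averaged 34.0 ± 21.1 CPM (SD, n = 14) in vCA1 against 4.61 ± 3.69 CPM (SD, n = 14) in vDG. Means of Fibcd1 (58.8 against 18.6 CPM), Mpped1 (281 against 117 CPM), Neurod6 (263 against 148 CPM) and Man1a (77.4 against 31.1 CPM) were also higher in vCA1. Wfs1, another CA1 marker, went the other way with 42.3 CPM in vCA1 and 76.4 CPM in vDG. Markers of dentate granule cells were lower in vCA1 but present: Prox1, a homeobox factor, averaged 105 CPM against 277 CPM, and C1ql2, a secreted synaptic protein, 21.9 CPM against 88.9 CPM.

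Within vCA1 the dentate level differed between the arms. It ranged from 1.94 to 4.36 (median 3.57) in the vehicle libraries and from 2.83 to 5.78 (median 4.36) in the dexamethasone libraries. The ranges overlapped, and dexamethasone replicate 14 was highest. The means were 3.28 ± 0.788 (SD, n = 14) and 4.21 ± 0.757 (SD, n = 15), a difference of 0.92 (two-sided permutation test, p = 0.00354, adjusted over 4 regions 0.0142). In vDG of the same series the means were 4.22 ± 0.950 and 4.31 ± 0.707 (SD, n = 15 each, permutation p = 0.771), so that the dexamethasone libraries of vCA1 were at the level of vDG. In dorsal punches the level was about as high in CA1 as in the dentate gyrus, with means of 5.94 (vehicle) and 6.00 (dexamethasone) in dDG and 6.27 and 5.85 in dCA1. By plate, the difference in vCA1 was 0.83, 1.599, 0.87 and 0.51. By punching date it was 0.84 (4 vehicle and 3 dexamethasone libraries), 2.23 (1 and 2), 1.499 (3 and 3), -0.17 (4 and 4) and 1.07 (2 and 3). Over the 6 genes the difference was uneven, at 1.99 for Dsp, 1.26 for Npnt and 0.95 for Tdo2. Plk5, Stxbp6 and Lct had 0.53, 0.41 and 0.38. Mean Plk5 was 16.0 CPM in the vehicle libraries (median 8.61, highest 108 CPM) and 16.6 CPM in the dexamethasone libraries. The arm and the dentate level correlated with r = 0.526 over the 29 libraries, so that the model with both separates them only in part.

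**Figure D1:**
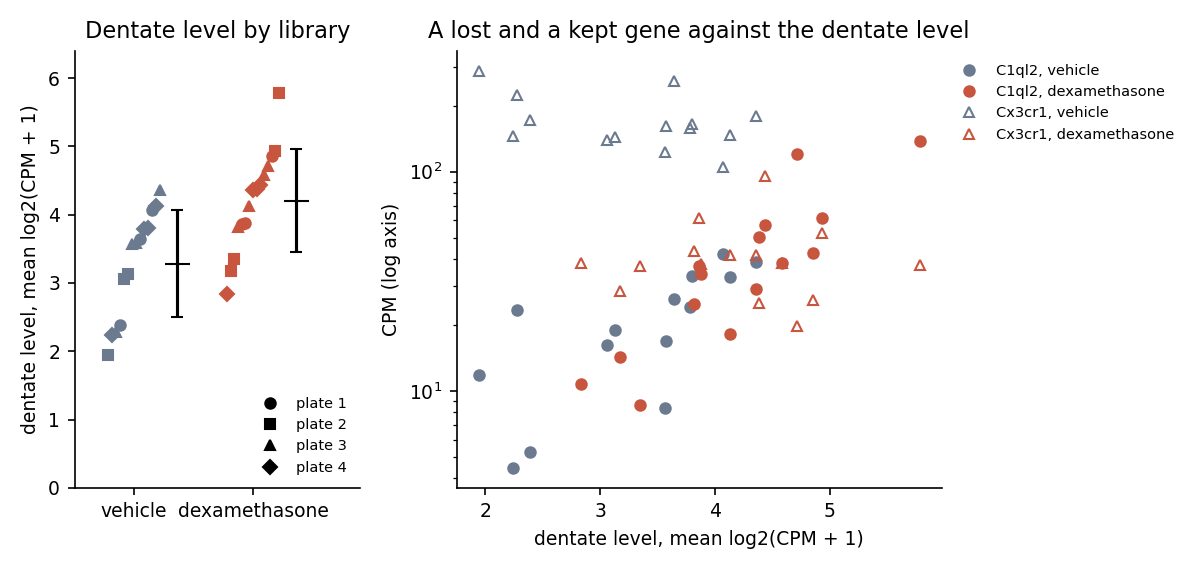
The left panel plots the dentate level, the mean log2(CPM + 1) of 6 genes, of each vCA1 library by arm, with symbols for the plate and bars for mean and SD; the right panel plots CPM on a log axis of C1ql2 and Cx3cr1 against the dentate level. C1ql2 climbs with the dentate level in both arms, while the 15 dexamethasone libraries of Cx3cr1 lie below the 14 vehicle libraries at any dentate level.

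At 4 h, 497 of 9126 genes tested (5.45%) differed between the arms by edgeR's quasi-likelihood test, 311 higher (3.41%) and 186 lower (2.04%) after dexamethasone. With the dentate level in the model, 278 genes (3.05%) were called, 191 higher (2.09%) and 87 lower (0.953%). Of the 497 genes, 267 were kept (2.93% of genes tested), 184 that rose (2.02%) and 83 that fell (0.909%). The other 230 were lost (2.52%), 127 that rose (1.39%) and 103 that fell (1.13%). A further 11 genes were gained. The kept share was 59.2% of risers and 44.6% of fallers. Kept genes had the larger changes, with a median absolute log2 fold change of 0.79 for risers and 0.73 for fallers, against 0.54 and 0.55 for lost genes. The median log2 fold change of all genes tested was -0.005.

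The classes are formed from the same 2 fits, so that the share of the change each class retained is a description. Kept genes retained a median of 100.8% of their log2 fold change, and between 63.0% and 140.1%. Lost genes retained a median of 80.9%, and 211 of the 230 retained at least 50%. With the covariate, 197 of the 230 lost genes still had an unadjusted p under 0.05, and the SE of the arm effect was larger by a median factor of 1.17 over all genes tested. The 19 lost genes that retained under 50% had all risen. Thus most lost genes missed the threshold with a change of similar size, and few lost most of their change. In 29 genes (0.318% of those tested) no dexamethasone library overlapped the vehicle libraries, and all 29 were kept. The sign was the same in all 4 plates for 263 of 267 kept and 215 of 230 lost genes, against 25.1% of all genes tested, a contrast that the choice of called genes on the same libraries favours. At the edge of the classes, Irak2, a kinase of interleukin 1 signalling (adjusted p with the dentate level 0.0486), and Diras2, a small GTPase (0.0482), lay just inside, and Fbxo10, a ubiquitin ligase subunit (0.0505), and Mapk4, an atypical MAP kinase (0.0510), just outside. Without vehicle replicate 11 these p-values became 0.0729 for Irak2, 0.112 for Diras2 and 0.0223 for Mapk4. Without dexamethasone replicate 14 they became 0.0569 for Diras2, 0.0321 for Fbxo10 and 0.0465 for Mapk4, and without vehicle replicate 2 they became 0.0430 for Fbxo10 and 0.0406 for Mapk4. Without vehicle replicate 15 they became 0.0722 for Irak2 and 0.0577 for Diras2. Class membership near the threshold thus turned on single libraries.

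**Figure D2:**
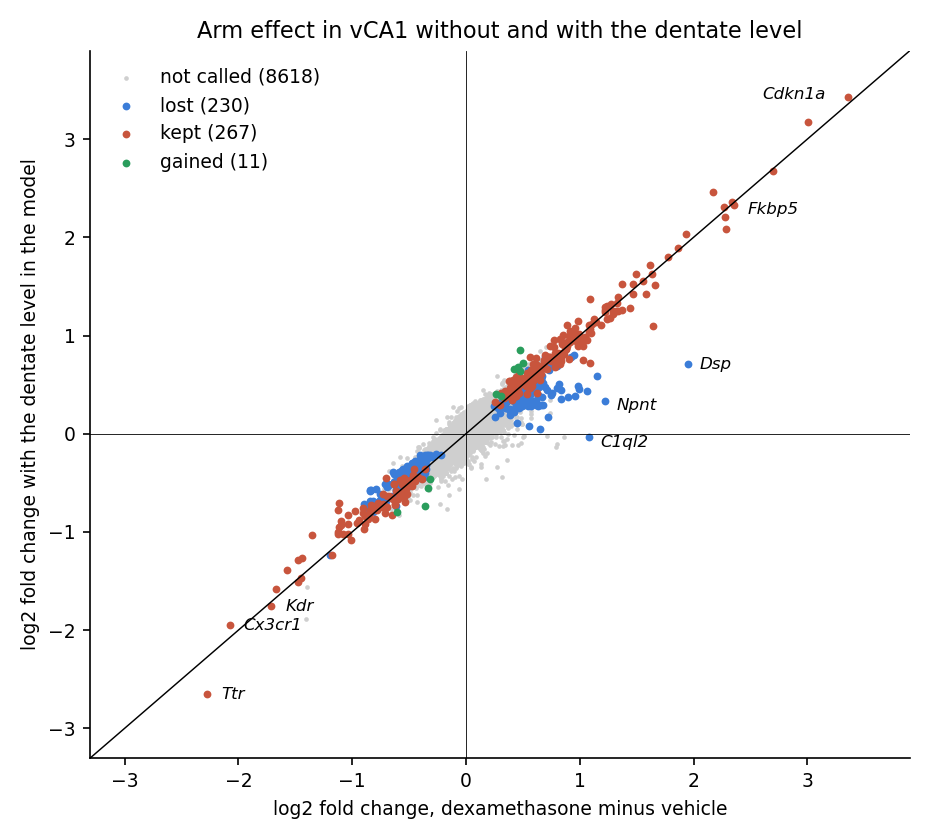
Each point is 1 of 9126 genes, with the log2 fold change without the dentate level on the x axis and with it on the y axis, coloured by class; the diagonal marks equal values. Cdkn1a, Fkbp5, Cx3cr1 and Kdr lie near the diagonal, whereas C1ql2, Npnt and Dsp lie well below it.

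The lists here and below were chosen with results of these data known, and some share called genes, among them Cdkn1a, Sesn1, Ddit4, Sgk1 and Nfkbia. Counts of such lists are not separate results. The glucocorticoid response list holds genes known to be raised by glucocorticoids in many cells. Of its 17 tested members 14 rose, against 3.41% of all genes tested, and all 14 were kept, against 2.02%. The median log2 fold change was 0.89 without and 0.93 with the dentate level, against -0.005 for all genes. Fkbp5 (ENSMUSG00000024222, chr17:28399095-28517524, minus strand, mm10), a co-chaperone that lowers hormone binding by the receptor, ranged from 2.78 to 47.6 CPM (median 21.1) in the vehicle libraries and from 76.5 to 131 CPM (median 113) in the dexamethasone libraries. The arms did not overlap, and the log2 fold change was 2.35 ± 0.147 (adjusted p = 1.29e-15) without and 2.33 ± 0.167 with the dentate level. Tsc22d3, which encodes the anti-inflammatory protein GILZ, rose from a range of 60.1 to 164 CPM to one of 201 to 367 CPM, again with no overlap (log2 fold change 1.32 ± 0.119). Zbtb16, a zinc finger transcription factor, rose by 1.02 ± 0.128, Klf9, a transcription factor that also responds to thyroid hormone, by 0.40 ± 0.0784, and Mertk, a receptor for the engulfment of cells and synapses, by 0.66 ± 0.126. The call of Klf9 with the dentate level was lost under 2 alternatives, the replicate block and Ttr as a covariate (adjusted p of up to 0.131). The tested members without a call were Dusp1, a phosphatase of MAP kinases (0.35 ± 0.135, adjusted p = 0.141), Per1, a clock gene (0.25 ± 0.139), and Pdk4, a kinase that limits pyruvate oxidation (0.48 ± 0.238).

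The receptor itself fell. Nr3c1 ranged from 70.7 to 126 CPM (median 94.4) in the vehicle libraries and from 41.5 to 76.6 CPM (median 55.8) in the dexamethasone libraries. Of the 15 dexamethasone libraries 11 lay below every vehicle library, and the log2 fold change was -0.73 ± 0.104 (adjusted p = 2.45e-06) without and -0.62 ± 0.116 with the dentate level. The receptor and chaperone list had 1 called gene, Nr3c1, of 15 tested, against 5.45% of all genes. Nr3c2, the mineralocorticoid receptor gene, had a log2 fold change of -0.34 ± 0.174 (adjusted p = 0.355), and Fkbp4, a co-chaperone that promotes receptor transport, of -0.19 ± 0.0935 (adjusted p = 0.326).

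The largest increase among called genes was that of Cdkn1a, a gene of growth arrest that is also in the glucocorticoid response list. Cdkn1a (ENSMUSG00000023067, chr17:29090979-29100722, plus strand, mm10) encodes p21, an inhibitor of cyclin-dependent kinases. It ranged from 15.2 to 63.0 CPM (median 31.1) in the vehicle libraries and from 199.7 to 548 CPM (median 339) in the dexamethasone libraries. The lowest dexamethasone library lay above the highest vehicle library, and the log2 fold change was 3.35 ± 0.157 (adjusted p = 1.07e-19) without and 3.43 ± 0.173 with the dentate level, the largest of the kept genes. Of 10 tested members of the p53 target and growth arrest list 6 rose and 5 were kept, against 3.41% of all genes tested that rose. Trp53inp1, a stress-induced gene of autophagy and p53 signalling, rose by 1.64 ± 0.126, Gadd45g, a growth arrest gene, by 1.78 ± 0.124, Sesn1, a sestrin that restrains mTOR, by 0.76 ± 0.111, and Ccng1, a cyclin that is a p53 target, by 0.78 ± 0.106. Btg2, an antiproliferative gene that also responds to neuronal activity, rose by 0.78 ± 0.205 (adjusted p = 0.0119) and was lost at 0.74 with the dentate level (adjusted p = 0.103).

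Of 23 tested genes of insulin, FoxO and mTOR control 9 were called, 8 higher and 1 lower, against 5.45% of all genes tested, and 6 of the 8 were kept. Irs2, an adaptor of the insulin receptor, ranged from 93.5 to 166 CPM in the vehicle libraries and from 177 to 298 CPM in the dexamethasone libraries, with no overlap (log2 fold change 0.89 ± 0.0839). Ddit4, an inhibitor of mTOR complex 1, rose from a median of 51.2 to 118 CPM without overlap (1.24 ± 0.104). Sgk3, a kinase related to Sgk1, rose by 1.38 ± 0.143, and Klf15, a factor of amino acid and glucose metabolism, by 0.99 ± 0.131. In both cases the value with the dentate level was at least as large, 1.53 and 1.01.

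Among metabolic genes, Plin4, which coats lipid droplets, ranged from 0 to 10.1 CPM (median 4.24) in the vehicle libraries and from 17.9 to 53.7 CPM (median 34.5) in the dexamethasone libraries. The arms did not overlap (log2 fold change 3.01 ± 0.249), although several vehicle values lie within the limit that a count of 0 allows. Of 17 tested lipid droplet and fatty acid oxidation genes 3 rose and were kept (3.41% of all genes tested rose), the others being Pnpla2, the first lipase of triglyceride breakdown (1.24 ± 0.186), and Ucp2, a mitochondrial carrier (1.28 ± 0.212). Mthfd2 (chr6:83305691-83325908, minus strand, mm10), a mitochondrial enzyme of the folate cycle, ranged from 1.54 to 15.7 CPM (median 13.1) in the vehicle libraries and from 55.6 to 108 CPM (median 80.8) in the dexamethasone libraries. This gene did not overlap between arms either (2.69 ± 0.152), yet it was the only called gene of 10 tested in the serine, one-carbon and ATF4 list. Xdh, the enzyme that forms uric acid, rose by 2.26 ± 0.255, Ampd3, an AMP deaminase, by 0.90 ± 0.150, and Nt5c3, a nucleotidase, by 0.57 ± 0.113, which made 3 of 5 tested purine genes, all kept. Slc25a13, the mitochondrial aspartate and glutamate carrier, rose by 2.17 ± 0.301. None of 22 tested genes of sterol and fatty acid synthesis, 80 nuclear genes of oxidative phosphorylation or 78 cytosolic ribosomal protein genes was called by edgeR without the covariate (at the background of 5.45%), and their median log2 fold changes were 0.07, -0.04 and -0.01.

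**Figure D3:**
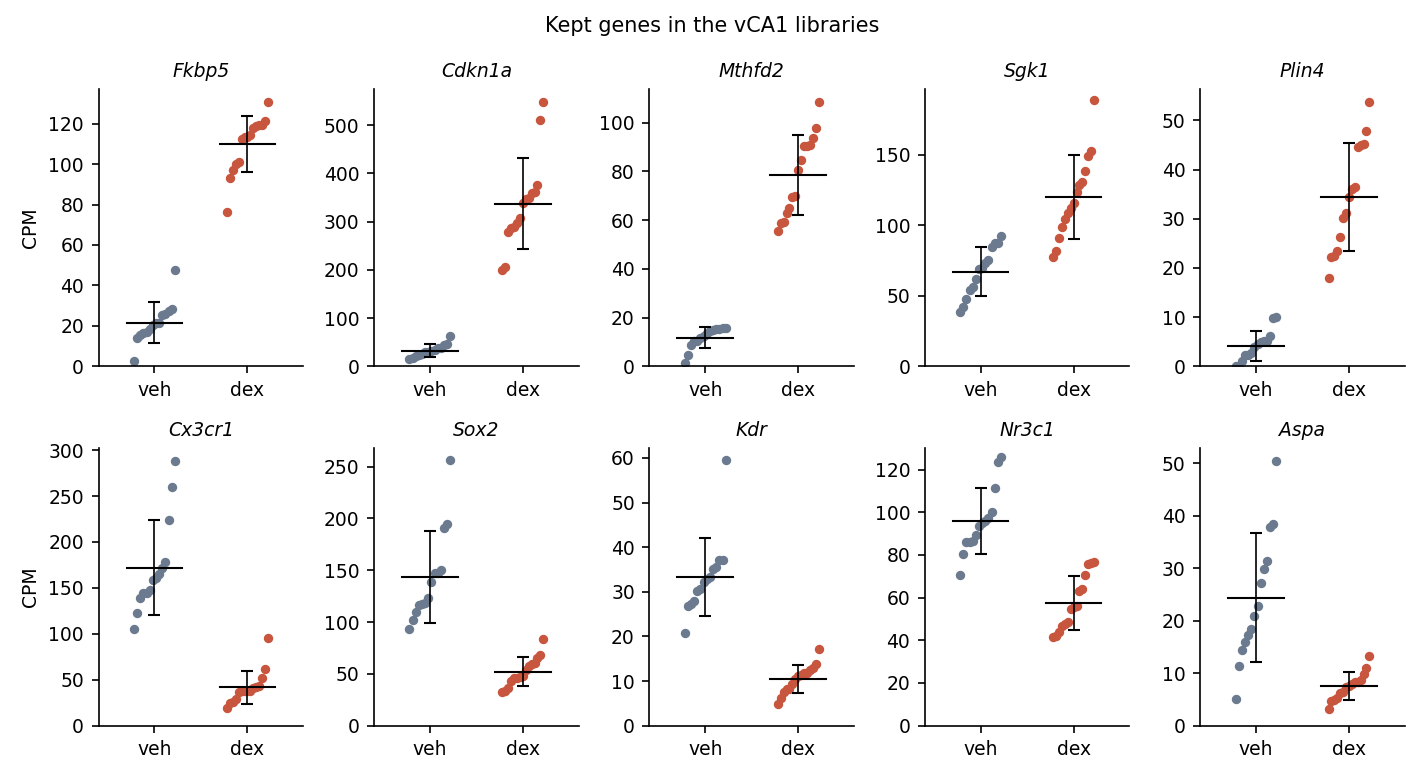
Each panel plots CPM of 1 kept gene in the 14 vehicle and 15 dexamethasone libraries, each point being a library, with the mean and SD as bars. The arms of Fkbp5, Cdkn1a, Mthfd2, Plin4, Cx3cr1, Sox2 and Kdr do not overlap, while those of Sgk1, Nr3c1 and Aspa do.

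Of 11 tested NF-kappaB and inflammatory genes 5 were called, 4 higher and 1 lower, against 5.45% of all genes tested, and all 5 were kept. The list as a whole had 6 positive and 5 negative values, with a median of 0.09. Nfkbia, the inhibitor that holds NF-kappaB in the cytoplasm, ranged from 72.3 to 204 CPM (median 134) in the vehicle libraries and from 268 to 547 CPM (median 342) in the dexamethasone libraries, without overlap (log2 fold change 1.47 ± 0.126). Zfp36, which promotes decay of cytokine messages, rose by 1.94 ± 0.176 from a median of 8.74 to 36.4 CPM, also without overlap. Its relative Zfp36l1 fell by 0.79 on the log2 scale (SE 0.133), and 56.0% of its exon bases are shared with a gene on the other strand. The interleukin receptor genes Il6ra (1.02 ± 0.183) and Il1r1 (1.64 ± 0.287) rose. Il1r1 retained 1.10 with the dentate level (adjusted p = 0.0263), and without vehicle replicate 11 that p was 0.0514. Cxcl12, a chemokine, was gained, at -0.33 ± 0.129 (adjusted p = 0.148) without and -0.55 with the dentate level (adjusted p = 0.0163, and 0.275 with the replicate block).

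Among microglial genes, 3 of 16 tested fell and all 3 were kept, against 2.04% of all genes tested that fell. A negative log2 fold change was found in 14 of 16, where 48.6% of all genes tested had a positive one (median -0.21 without and -0.22 with the dentate level). Cx3cr1 (ENSMUSG00000052336, chr9:119901616-120068283, minus strand, mm10), the receptor for the neuronal chemokine fractalkine, ranged from 105 to 289 CPM (median 159.8) in the vehicle libraries and from 19.7 to 95.8 CPM (median 38.1) in the dexamethasone libraries. Every dexamethasone library lay below every vehicle library, with a log2 fold change of -2.07 ± 0.160 (adjusted p = 8.31e-13). P2ry12, a purine receptor of resting microglia, changed by -1.12 ± 0.163, and Sall1, a transcription factor of microglial identity, by -1.11 ± 0.201 without and -0.70 ± 0.203 with the dentate level (adjusted p = 0.0438). The call of Sall1 with the dentate level was lost under 7 alternatives, among them plate and punching date as factors and RIN as a covariate, with an adjusted p of up to 0.335. In bulk punches, fewer cells of a type and less RNA per cell cannot be told apart. The summed level of the 24 microglial markers ranged from 710 to 1372 CPM (median 871) in the vehicle libraries and from 493 to 996 CPM (median 653) in the dexamethasone libraries, none of the 24 was at 0 in all libraries, and the part of this shift in the fall of single genes was not tested.

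Endothelial and barrier genes moved in both directions. Of 21 tested members 10 were called, 3 higher and 7 lower, against 3.41% and 2.04% of all genes tested, and all but Klf2, a flow-responsive factor that rose, were kept. Kdr, the main receptor for the growth factor VEGF, ranged from 20.7 to 59.4 CPM (median 32.6) in the vehicle libraries and from 4.88 to 17.3 CPM (median 11.2) in the dexamethasone libraries. The arms did not overlap, and the log2 fold change was -1.71 ± 0.154 (adjusted p = 5.14e-11). Flt1, the other VEGF receptor of the list, changed by -0.59 ± 0.0940, Slco1a4, an organic anion transporter of brain vessels, by -0.62 ± 0.144, and Itm2a by -0.55 ± 0.138, a call that was lost with the dentate level under 3 alternatives (adjusted p of up to 0.179). In contrast Slc2a1, the glucose transporter of the blood-brain barrier, rose from a range of 52.3 to 126 CPM to one of 151 to 268 CPM (1.29, adjusted p = 1.18e-11), and Mfsd2a, a lipid transporter that restrains transcytosis, rose by 1.29 ± 0.152. The summed level of the 28 endothelial markers was similar in both arms, with medians of 1110.4 and 1109 CPM. Of 5 tested mural cell genes 0 were called by edgeR, against 5.45% of all genes. Mcam, an adhesion molecule of vessels outside that list, fell by 1.45 on the log2 scale (SE 0.180).

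Of 23 tested astrocyte genes 2 rose and 2 fell, all 4 kept, against 3.41% and 2.04% of all genes tested. Dio2, the enzyme that activates thyroid hormone, ranged from 80.1 to 247 CPM (median 143) in the vehicle libraries and from 239.7 to 1137 CPM (median 368) in the dexamethasone libraries. Only 1 dexamethasone library lay within the vehicle range (log2 fold change 1.47 ± 0.187), and the gap junction gene Gjb6 rose by 0.89 ± 0.125. Sox9, a factor of glial fate, changed by -1.13 ± 0.115, and Id3, an inhibitor of basic helix-loop-helix factors, by -1.17 ± 0.168. Sox2, a factor of neural stem cells and glia, ranged from 93.2 to 256 CPM (median 131) in the vehicle libraries and from 32.3 to 83.8 CPM (median 47.8) in the dexamethasone libraries, without overlap (-1.48 ± 0.136). Its relative Sox21 fell by 1.48 (SE 0.164). Summed over the 23 astrocyte markers, the libraries had medians of 16560.4 and 16684 CPM.

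All 18 tested oligodendrocyte genes had a negative log2 fold change, with a median of -0.44 without and -0.31 with the dentate level, and 5 fell by the test. Over all genes tested 48.6% had a positive value and 2.04% fell. Among the kept were Aspa, which splits N-acetylaspartate for myelin lipid synthesis (-1.67 ± 0.231), and Opalin, a myelin membrane protein (-1.35 ± 0.255). In libraries of RIN 5 and above, or with RIN as a covariate, the call of Opalin with the dentate level was lost (adjusted p of up to 0.0727). Ermn, a cytoskeletal protein of myelinating cells, changed by -0.84 ± 0.198 (adjusted p = 0.00450) and was lost at -0.57 (adjusted p = 0.182), as was Ugt8a, the enzyme of galactosylceramide synthesis, at -0.70 ± 0.205 without and -0.51 with the dentate level. Ermn was called with the dentate level under the replicate block and with plate and punching date as factors (adjusted p down to 0.00722). Without dexamethasone replicate 14 the adjusted p of Ugt8a without the covariate was 0.0559. Among precursor genes Sox10, a factor of the oligodendrocyte lineage, fell by 1.10 (SE 0.129) and was kept, and Cspg5, a proteoglycan, fell by 0.45 (SE 0.126) and was lost. The summed level of the 18 oligodendrocyte markers ranged from 3232 to 8173 CPM (median 5606) in the vehicle libraries and from 2379 to 9403 CPM (median 4079.6) in the dexamethasone libraries, and its part in these falls was not tested.

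Of 10 CA1 pyramidal genes 9 had a negative log2 fold change (median -0.39 without and -0.28 with the dentate level), but only Neurod6, a pyramidal transcription factor, was called and kept (-0.70 ± 0.145, adjusted p = 0.00107 without and 0.0232 with the dentate level, the latter 0.0584 without vehicle replicate 11 and up to 0.155 under other alternatives). Wfs1 was gained, at 0.47 ± 0.238 (adjusted p = 0.341) without and 0.85 with the dentate level (adjusted p = 0.0395, lost under 7 alternatives with up to 0.0913, among them DESeq2, RIN as a covariate, 0.0654 without vehicle replicate 11 and 0.0648 without vehicle replicate 15). None of 15 interneuron genes and none of 12 GABA receptor genes was called by edgeR, where 5.45% of all genes tested were. Of 22 tested glutamate receptor genes only Grin3a, an NMDA receptor subunit, fell, by 0.38 (SE 0.118, adjusted p = 0.0465), and it was lost. That call was also absent without vehicle replicate 11 (0.0839), vehicle replicate 2 (0.0827) or dexamethasone replicate 14 (0.0683). Of 39 tested potassium channel genes 3 were called (5.45% over all genes): Kcnk1 (0.56 ± 0.103) and Kcnk2 (0.42 ± 0.0951), which form leak channels, rose and were kept, and Kcnt1 (0.57) rose and was lost. Without vehicle replicate 15 Kcnt1 was called with the covariate, at 0.76 (adjusted p = 0.00260). Summed over the 10 CA1 markers, the level had a median of 1104 CPM in the vehicle and 868 CPM in the dexamethasone libraries.

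All 3 called members of the 12 tested activity-dependent genes (5.45% called and 2.52% lost over all genes tested) were lost: Btg2, the nuclear receptor Nr4a3 (-0.56 ± 0.145) and the synaptic scaffold Homer1 (-0.39 ± 0.111). With the dentate level their values were 0.74, -0.54 and -0.32, and Nr4a3 was called with it when plate and punching date were factors. Without dexamethasone replicate 14 the adjusted p of Homer1 without the covariate was 0.0510. That call was also absent with the replicate block, plate and punching date as factors, or the libraries of the authors' table (adjusted p up to 0.0872). Of 17 tested clock genes, Per3 (0.44, adjusted p = 0.00771) and Rorb (-0.59 ± 0.138) were lost, at 0.29 and -0.43 with the dentate level. Dbp, an output gene of the clock, was kept (-0.56 ± 0.140; adjusted p with the dentate level 0.0206, lost under 3 alternatives with up to 0.294, among them 0.0835 without vehicle replicate 11). Of the exon bases of Dbp 32.1% are shared with Sphk2 on the other strand. Fgfr1 rose by 0.64 ± 0.0988 and Fgfr2 fell by 0.81 (SE 0.143), both receptors of fibroblast growth factors and both kept, while their ligand gene Fgf2 (0.93 ± 0.232) was lost, at 0.78 with the dentate level. With the replicate block the adjusted p of Fgfr2 with the dentate level was 0.0602. Errfi1, an inhibitor of the EGF receptor, rose by 1.34 ± 0.153 and Spry2, an inhibitor of receptor kinase signalling, fell by 0.58 (SE 0.101), both kept. Of 42 tested axon guidance genes 7 were called, against 5.45% of all genes tested, and 5 of them were lost, including Unc5b (-0.82 ± 0.211) and Plxnb3 (-0.79 ± 0.182), while Epha10 (0.97 ± 0.107) and the ephrin gene Efnb2 (-0.91 ± 0.178) were kept. Kruppel-like factors moved both ways, with 6 of 9 called, against 5.45% of all genes tested: Klf9, Klf15 and Klf2 higher, and Klf3 (-0.52 ± 0.122), Klf10 (-0.89 ± 0.216) and Klf7 (-0.39 ± 0.0870) lower, of which Klf2 and Klf7 were lost. The replicate block gave adjusted p-values of 0.0509 for Klf10 with the dentate level and 0.0533 for Klf2 without it. Of the exon bases of Klf7 39.3% are shared with another gene.

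Further kept genes with large changes stood outside these lists. B4galt1, a galactosyltransferase, rose by 2.28 ± 0.191, Ms4a6b, of the MS4A membrane protein family, by 2.28 ± 0.254, and Depp1, a target of FoxO factors, by 2.34 ± 0.268. Tnfaip6, a hyaluronan-binding protein, changed by -1.57 ± 0.213 and Trim59 by -1.44 ± 0.184. Ttr, the transthyretin gene of the choroid plexus, had the largest negative value, -2.27 ± 0.559 (adjusted p = 0.00692), but it rested on 1 library. It ranged from 15.8 to 1413 CPM (median 37.7) in the vehicle libraries and from 11.4 to 91.0 CPM (median 25.9) in the dexamethasone libraries, and without vehicle replicate 11, the library with the most Ttr, the value was -0.95 (adjusted p = 0.199), and -0.44 with the dentate level (adjusted p = 0.957). The summed level of the 16 choroid plexus markers ranged from 186 to 2111 CPM in the vehicle libraries and from 157 to 361 CPM in the dexamethasone libraries.

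**Figure D4:**
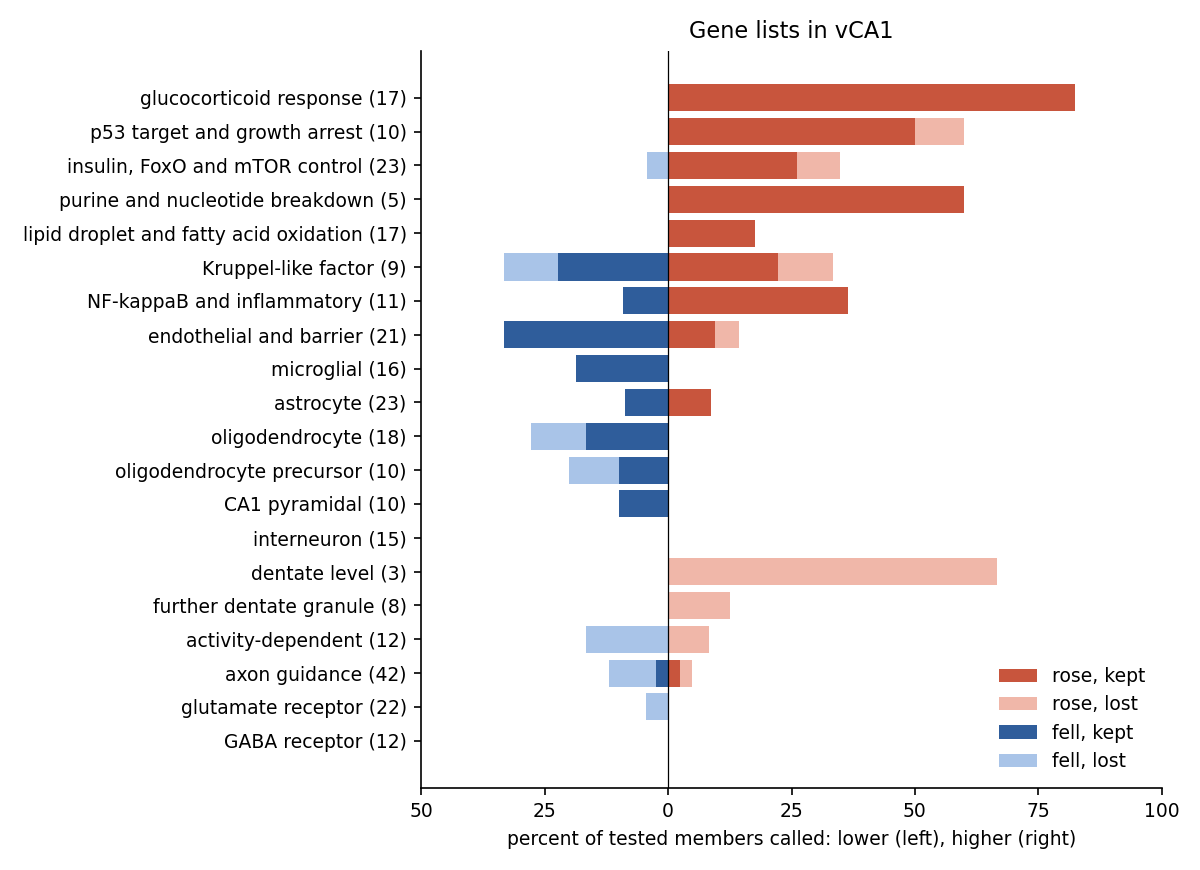
Bars show the percent of tested members of each list called higher (right) or lower (left) after dexamethasone in vCA1, with full colour for kept and pale colour for lost genes and the number tested in brackets. All called members of the glucocorticoid response list are kept and higher, whereas those of the activity-dependent list and of both dentate lists are lost, with log2 fold changes with the dentate level that remain at -0.54 for Nr4a3 and 0.74 for Btg2 but come to -0.04 for C1ql2.

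Lost genes that rose included those of dentate granule cells. Dsp and Npnt are themselves part of the dentate level, so that their loss follows from the model. Dsp, the desmosomal protein desmoplakin (chr13:38151328-38198577, plus strand, mm10), ranged from 0 to 21.0 CPM (median 7.17) in the vehicle libraries and from 2.38 to 93.0 CPM (median 24.4) in the dexamethasone libraries, with a log2 fold change of 1.95 ± 0.399 without and 0.71 with the dentate level. C1ql2, which is not in the dentate level, ranged from 4.45 to 42.0 CPM (median 21.2) and from 8.65 to 138 CPM (median 37.0). Its log2 fold change was 1.08 ± 0.320 (adjusted p = 0.0345) without and -0.04 ± 0.228 (adjusted p = 0.991) with the dentate level, and without the covariate the adjusted p was 0.103 when dexamethasone replicate 14 was left out, 0.0565 when vehicle replicate 2 was and 0.0530 when vehicle replicate 15 was. The call of C1ql2 without the covariate was also absent with DESeq2, with the replicate block, and with plate and punching date as factors. All 8 tested genes of the further dentate list had positive values, against 48.6% of all genes tested, with a median of 0.45 that became -0.03 with the dentate level. C1ql2 was the only one called, where 5.45% of all genes tested were. Prox1 had 0.80 ± 0.251 (adjusted p = 0.0522) without and -0.13 ± 0.183 with the dentate level. The summed level of the 10 further dentate markers had a median of 594 CPM in the vehicle and 846 CPM in the dexamethasone libraries.

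Other lost genes with large changes had other functions. Among those that rose were Tspan18, a tetraspanin (1.15 ± 0.293), Ccnjl, a cyclin-like gene (1.07 ± 0.276), Napepld, the enzyme that makes N-acylethanolamines (0.98 ± 0.226), and Spp1, which encodes osteopontin (0.98 ± 0.265). Spp1 kept its size at 0.99 with the dentate level (adjusted p = 0.0666), whereas Tspan18, Ccnjl and Napepld had 0.59, 0.44 and 0.49. Those that fell included Rasgrp3, an activator of Ras (-0.89 ± 0.206), Ndst3, an enzyme of heparan sulfate synthesis (-0.86 ± 0.210), and Nr2e1, an orphan nuclear receptor of neural stem cells (-0.84 ± 0.228). With the dentate level they had -0.71, -0.82 and -0.57, and Ndst3 was called with it when dexamethasone replicate 14 was left out (adjusted p = 0.0475). Chn2, a Rac GTPase activator, had the largest negative value of the lost genes, -1.19 ± 0.325, but its size rested on vehicle replicate 15. Chn2 was at 510 CPM in that library, against 20.0 to 83.3 CPM in the other vehicle libraries, and without it the log2 fold change was -0.50 (adjusted p = 0.0638) and -0.35 with the dentate level. Without vehicle replicate 11 Chn2 was called with the covariate (-1.38, adjusted p = 0.0416).

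The slope on the dentate level within arms was tested in the same model. It was called for 45 genes (0.493% of those tested), 43 of them positive (0.471%), and 16 of the 45 were lost and 2 were kept. Dsp, Npnt and Stxbp6 are among the 43 and are themselves terms of the dentate level, so that their positive slope is fixed by construction. Of the other genes, those with the smallest adjusted p were C1ql2, with a log2 slope of 1.17 ± 0.132 per unit of the dentate level, Prox1 (0.91 ± 0.104), C1ql3 (0.55) and Sema5a (0.63). The 2 kept genes, named after their values were seen, were Pdzd2 (slope 0.38, log2 fold change with the dentate level 0.72) and Kif21b (slope -0.28, log2 fold change -0.45). Without dexamethasone replicate 14, which has the highest dentate level, 19 slopes were called. With the replicate number as a block, whose same-numbered libraries share a plate in 14 of 14 pairs, 2 slopes were called and 173 genes were kept, and with plate and punching date as factors 38 slopes were called and 274 genes were kept. With those factors 241 of the 267 kept genes stayed kept. Of the 230 lost genes 162 stayed lost and 24 became kept. A positive slope, called or not, was found in 109 of 127 lost genes that rose and 14 of 103 lost genes that fell, against 48.2% of all genes tested, and in 79 of 184 kept genes that rose. The choice of lost genes favours these signs, so that they are given as a description. In the vehicle libraries all 43 genes with a positive slope, the 3 terms of the dentate level included, had a higher mean in vDG than in vCA1, as did 103 of 127 lost and 134 of 184 kept genes that rose, against 52.1% of all genes tested. Over the dexamethasone libraries these counts were 33 of 43, 68 of 127 and 134 of 184, against 49.8%. These means share the vCA1 libraries with the comparison of the arms.

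The same genes were then read in vDG, dCA1 and AMY of the same series, whose libraries took no part in choosing the classes, although they come from the same animals. In vDG, where 3.93% of 9311 genes were called, 138 of 182 tested kept genes that rose (75.8%) and 46 of 81 that fell (56.8%) were called in the same direction. For lost genes the counts were 26 of 126 (20.6%) that rose and 23 of 101 (22.8%) that fell. The background in vDG was 2.64% for higher and 1.29% for lower genes. In dCA1 (4.68% called, 2.57% higher and 2.11% lower) 117 of 170 and 48 of 77 kept genes were called, against 25 of 122 and 24 of 89 lost genes, and 2 lost genes that rose in vCA1 fell in dCA1. In AMY (5.62% called, 3.54% higher and 2.08% lower) 147 of 176 and 56 of 78 kept genes were called, against 32 of 110 and 39 of 90 lost genes. Of 165 kept genes that rose and were tested in all 3 regions, 96 were called in all 3 and 13 in none, and of 108 such lost genes 5 were called in all 3 and 57 in none. Among fallers, 34 of 73 kept and 8 of 80 lost genes were called in all 3. Kept genes also had larger changes in vCA1 than lost genes, and their calls elsewhere were not matched for that size.

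**Figure D5:**
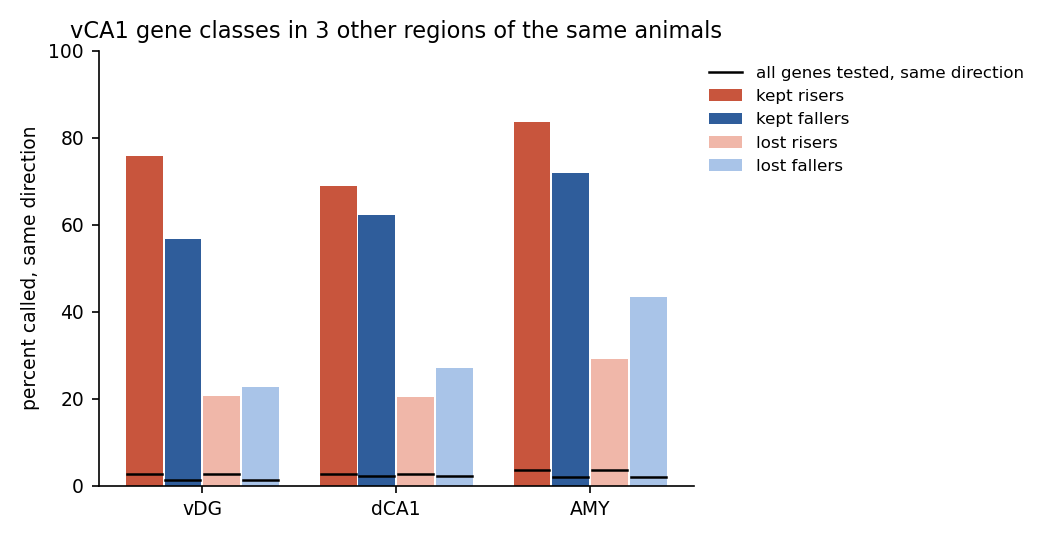
Bars give the percent of tested genes of each vCA1 class that were called in the same direction in vDG, dCA1 and AMY, and black lines the percent of all genes tested called in that direction. Kept risers reach 75.8% in vDG and 83.5% in AMY, and lost risers 20.6% and 29.1%.

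Whether the response of a gene differed between vCA1 and another region was tested directly, with the animal as a block. Against vDG no gene of 10032 was called (0%) by edgeR, and none by DESeq2, with 386 genes at an unadjusted p under 0.05. The smallest p belonged to Ptgfrn, a regulator of prostaglandin receptor function, with log2 fold changes of 1.62 in vCA1 and 0.73 in vDG and a difference of 0.90 ± 0.212 (adjusted p = 0.768). Against dCA1, 8 of 9647 genes (0.0829%) differed. Smad3, a mediator of TGF-beta signals, had log2 fold changes of 0.45 in vCA1 and -0.42 in dCA1, a difference of 0.84 ± 0.153 (adjusted p = 0.0222). Ccn2, a matrix protein induced by TGF-beta, had -0.30 in vCA1 and 1.31 in dCA1 (difference -1.47 ± 0.295), and Kcnt1, a sodium-activated potassium channel, 0.57 and 2.26 (-1.58 ± 0.321). With the dentate level in the model none of the 8 was called (adjusted p = 1), and the differences were -1.28 for Ccn2, -1.05 for Kcnt1 and 0.54 for Smad3. Dsp and Npnt were also among the 8 and are part of the covariate, so that their loss is by construction. The dentate level in dCA1 averaged 6.27 ± 0.520 in the vehicle and 5.85 ± 0.888 in the dexamethasone libraries (SD, n = 15 and 13, permutation p = 0.133). In vCA1 the means were 3.28 and 4.21. The gap between the regions thus differed by arm, and the covariate overlaps with the term tested.

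Against AMY, 8 of 9745 genes (0.0821%) differed, and 3 were called with the dentate level in the model. The dentate level of AMY libraries is not given here, and what it measures outside the hippocampus was not tested. Mthfd2 rose by 2.69 in vCA1 and by 1.299 in AMY on the log2 scale, a difference of 1.41 ± 0.216 (adjusted p = 0.000297). Synm, an intermediate filament protein of astrocytes and muscle, rose by 0.79 in vCA1 and by 1.87 in AMY (-1.09 ± 0.158, adjusted p = 0.000181). Ptgfrn rose by 1.62 in vCA1 and by 0.73 in AMY (0.90 ± 0.186, adjusted p = 0.0261). These 3 were the ones called with the dentate level, while DESeq2 without it gave Ptgfrn an adjusted p of 0.0621 at the same difference. Ccng1 rose by 0.78 in vCA1 and by 1.80 in AMY (-1.07 ± 0.177, adjusted p = 0.00113), and with the covariate the difference was -0.95 (adjusted p = 0.0640).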

How the data were processed

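Counts per gene were deposited by the authors for 235 libraries, and the 29 vCA1 libraries (14 vehicle, 15 dexamethasone) were analysed, with vDG, dCA1, AMY and dDG for comparison. The submitters' processing notes name FastQC 0.11.4, cutadapt, UMI-tools 0.5.4, STAR 2.6.0a, featureCounts 1.6.4, DESeq2 1.30.1, R 4.0.5 and mm10, without role or order; the annotation and the strand setting are not given in the sources used here. The authors' deposited log2-scale variance-stabilised values were used only to see which 26 vCA1 libraries that table lists. Of 27998 genes, 27645 were paired with a symbol.

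Tests were made with edgeR 4.0.16 (limma 3.58.1, R 4.3.3): filterByExpr, TMM scaling and the quasi-likelihood test, with Benjamini-Hochberg adjustment over all genes tested and a threshold of 0.05. The dentate level used a pseudocount of 1. Response differences between regions used region by arm terms with the animal as a block. Single values were tested by two-sided permutation with 1e+05 resamples. DESeq2 1.42.0, other filters, scalings, covariates and left-out libraries were alternatives, and the scripts were tested on simulated data. The 4 left-out libraries (vehicle replicates 2, 11 and 15, dexamethasone replicate 14) were chosen after seeing the data. No 2 libraries of an arm agreed within sampling noise (smallest chi-square per degree of freedom 1.41 over 196 pairs). Animals are separate, 1 library each.

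The members and gene lists were chosen with earlier results of these data known. Genes with a mean of at least 5 CPM were named by rule: the 10 kept genes with the largest rise and fall with the dentate level, 8 lost in each direction, 3 gained with the smallest p, 2 on each side of the threshold, up to 6 per list with the smallest p, all tested genes of the glucocorticoid and dentate lists, and 3 per response test. Promoters are RefSeq sequences on GRCm38.p6. Gene positions in the count table overlapped those of GRCm38 for 99.9% of identifiers in both. A few genes that the rule names are not reported here.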

Additional observations from a re-analysis of the deposited data

Results flagged for a closer look

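The response to dexamethasone in vCA1 differed from that in another region for 16 results, by a test of the difference of the log2 fold changes (vCA1 minus the other region). Against dCA1 the differences were 0.84 for Smad3, -1.47 for Ccn2, 1.72 for Npnt, -1.58 for Kcnt1, 1.00 for A830036E02Rik, 0.88 for Pde1b, 1.41 for Il1r1 and 1.78 for Dsp. None of these 8 was called with the dentate level in the model. Npnt and Dsp are themselves part of the dentate level. Against AMY the differences were -1.09 for Synm, 1.41 for Mthfd2, -1.07 for Ccng1, -0.81 for Phactr3, -1.99 for Hr, 1.67 for Stc1, 0.90 for Ptgfrn and 1.24 for Dusp14. Of these, Synm, Mthfd2 and Ptgfrn were called with the dentate level in the model. Hr and Stc1 did not pass the filter on low counts in vCA1 alone.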

How the results depend on the processing

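Of 3536 values under alternatives for 247 results on single genes, 3345 kept their direction and side of the threshold, 124 lost the call, 59 gained it and 8 changed sign. With at least 10 counts in every library, which tests 152 of 267 kept and 142 of 230 lost genes, 283 genes were called, 153 with the dentate level, 148 were kept and 135 lost, 26 slopes were called, vDG, dCA1 and AMY had 194, 235 and 292 calls, and the response differences were 1 against dCA1 and 2 against AMY. With no filter 353 genes were lost. With the dentate level in the region models, 0 genes differed in response against dCA1 and 3 against AMY. Leaving out vehicle replicate 2, 11 or 15 or dexamethasone replicate 14 in turn gave 19 to 51 called slopes, the 19 being without dexamethasone replicate 14. The dentate level differed by -0.17 on punching date 4. DESeq2 called 523 genes and 284 were kept, among them 259 of the 267. Without vehicle replicate 11, 235 were kept.

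The labels do not say that replicate numbers pair animals. Same-numbered libraries shared a plate in 14 of 14 pairs and a punching date in 13, and their deviations correlated at -0.15 to 0.31, with 4 of 14 pairs over 0.1 and 3 vehicle libraries best matched by their own number. With the replicate block, 182 genes were called with the dentate level, 173 were kept, of which 164 were among the 267, and 2 slopes were called. Values with the dentate level that changed sign were Npnt (-0.018 with the replicate block), C1ql2 (0.12 with the replicate block, 0.039 in libraries of RIN 5 and above, 0.14 with a dentate level from Dsp, Lct and Tdo2, 0.014 with Ttr as a covariate, and -0.11 to 0.0081 over the left-out libraries), Prox1 (0.019 with Dsp, Lct and Tdo2) and Ttr (0.0044 with Ttr itself as a covariate). The cause was not tested. Depth limits genes near 3 counts, which is 2.69 to 7.78 CPM.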
